A study of Mus musculus with 8 samples.

Results

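CpG-rich promoters of protein-coding genes were examined in CUT&Tag libraries for the transcription factor SOX9 from mouse spinal cord. A promoter was taken as the 1 kb to each side of the 5′ end of a coding gene on chromosomes 1 to 19 of mm10. It was called CpG-rich when the 500 bp to each side had a GC content of at least 0.55 and a ratio of observed to expected CpG of at least 0.6. The rule used the sequence alone and no measured value. It held for 8233 of 20807 coding promoters (39.57%), and the other 12574 are called CpG-poor here.

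The cords came from WT adult C57BL/6 mice, either uninjured or 1 day after a thoracic contusion (1 d.p.i.). The paper's stated aim was direct evidence that lineage-specific factors bind injury-responsive enhancers of reactive astrocytes. Each condition had 1 male (M) and 1 female (F) sample, and each sample gave 1 library with the SOX9 antibody and 1 secondary-only control from a separate portion of the same nuclei, so that 8 libraries in 4 groups of 2 were available. Nuclei were sorted for DNA content from whole segments around the injury or at the same level, with no selection by cell type named for these libraries in the labels. The methods refer to an earlier sort in which nuclei were also stained for NEUN or SOX10, so which cell types the libraries hold is not settled by these sources, and a change in the cells present cannot be told apart from a change within cells. M and F were different animals, and with 1 sample of each sex per condition, sex and animal cannot be told apart. The paper states that animals were pooled per condition for its sequencing experiments, so a sample may hold more than 1 animal.

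CpG islands mark the promoters of most broadly expressed genes and of many developmental regulators. They are usually unmethylated, and where the gene is active they are open to enzymes, including the transposase that CUT&Tag tethers to an antibody. SOX9 is an HMG-box factor that binds short AT-rich words and, in the adult cord, is best known from astrocytes and ependymal cells. Developmental regulators with CpG islands are often kept silent by Polycomb complexes in tissues that do not use them.

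Depth differed greatly between libraries. The SOX9 libraries held 1901433 (uninjured M), 7248962 (uninjured F), 2538725 (1 d.p.i. M) and 2396777 (1 d.p.i. F) fragments rebuilt from the coverage, and the controls held 22848, 47049, 53341 and 10948 in the same order. At the depth of the controls most single promoters had no fragment: between 68.5% and 90.2% of CpG-rich promoters were at 0 in a control, against 0.0364% to 1.40% in a SOX9 library. Levels of single promoters are therefore given for the SOX9 libraries, and the controls are used through their means over the class. Chromosome Y held 1.11% and 0.627% of the coverage in the M SOX9 libraries and 0.0979% and 0.141% in the F ones, as their labels say. In the controls it held 0.201% and 0.265% in M and 0.217% and 0.129% in F, which did not separate the sexes.

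Control fragments were shared with SOX9 libraries in these promoters too. Of the lone control fragments that started in a CpG-rich promoter, 92.9% (1194 of 1285, uninjured M), 88.2% (2037 of 2310, uninjured F), 90.7% (2085 of 2298, 1 d.p.i. M) and 94.0% (646 of 687, 1 d.p.i. F) had a start and an end that also occurred in a SOX9 library. Outside the class the shares were 93.7%, 82.4%, 86.3% and 91.3% in the same order, below those of the class in 3 of 4 controls. The matching library was the one from the same nuclei for 25.1%, 62.9%, 28.8% and 16.7% of the fragments, and 1 of the other SOX9 libraries for 76.8%, 39.0%, 71.4% and 85.3%, with some fragments in both counts. Chance matches were not measured, and they are more likely where SOX9 coverage is dense. Whether the controls are independent of the SOX9 libraries was not tested, and the comparison between them is given with and without the shared fragments.

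CpG-rich promoters carried several times the mean coverage of chromosomes 1 to 19 in every library. Their mean level, as coverage over the library mean, was 7.25 in uninjured M, 14.7 in uninjured F, 10.7 in 1 d.p.i. M and 8.69 in 1 d.p.i. F. The median promoter stood at 5.73, 11.1, 8.02 and 6.93. The uninjured pair held both the lowest and the highest of the SOX9 libraries, and the pair at 1 d.p.i. lay between them. In total, 3990 members (48.46%) reached 5 times the library mean in each of the 4 SOX9 libraries, against 10.47% of CpG-poor promoters. At the other end, 174 members (2.113%) were at 0 in at least 1 SOX9 library. The order of promoters was alike between libraries: across the 8233 members, which share their sequence and window and are not independent replicates, Spearman's rho between pairs of SOX9 libraries ran from 0.787 to 0.905.

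The class covers 0.610% of the sequence and took a larger share of the fragments. Of all fragments on chromosomes 1 to 19, 4.51% (Wilson 95% interval 4.48 to 4.54) started in a CpG-rich promoter in uninjured M, 8.63% (8.61 to 8.65) in uninjured F, 6.72% (6.69 to 6.76) in 1 d.p.i. M and 5.36% (5.33 to 5.39) in 1 d.p.i. F. In the controls the shares were 6.77% (6.45 to 7.11), 6.81% (6.59 to 7.05), 5.95% (5.75 to 6.16) and 7.11% (6.64 to 7.61) in the same order. The intervals cover counting error only and are far narrower than the spread between SOX9 libraries.

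The signal was centred on the start site. In 100-bp bins along the direction of transcription, the highest bin was the 100 bp before the start in each of the 4 SOX9 libraries, at 13.8 (uninjured M), 33.8 (uninjured F), 21.9 (1 d.p.i. M) and 16.8 (1 d.p.i. F) times the library mean. Between 700 and 900 bp of bins held at least 50% of that height. Coverage 4 to 5 kb upstream had come down to between 1.91 and 2.33 times the mean, and 4 to 5 kb downstream to between 2.18 and 2.64. The libraries thus differed at the start and little at the flanks. CpG-poor promoters peaked lower and later, at 4.52 to 7.59 times the mean within the first 200 bp after the start. Controls also peaked in the 200 bp before the start of CpG-rich promoters, at 23.1 to 27.2 times their mean. The uninjured F and 1 d.p.i. M controls had a further rise 3700 to 3800 bp downstream, to 14.06 and 10.42 times the mean, where the SOX9 libraries had 2.33 to 2.86. Without Sumo3 and Gm49325, the 2 highest members in that bin, chosen after their values were seen, these controls stood at 2.45 and 2.67 there.

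CpG-rich promoters exceeded CpG-poor ones in each of the 4 SOX9 libraries. The ratio of the means was 2.49 (uninjured M), 3.49 (uninjured F), 3.01 (1 d.p.i. M) and 2.76 (1 d.p.i. F), or 2.94 ± 0.428 (SD, n = 4). The mean log2 ratio was 1.54, and the exact two-sided sign-flip permutation test over the 4 libraries gave p = 0.125, the smallest p that 4 libraries allow. The controls showed the ratio as well, at 2.98, 2.89, 2.79 and 3.30, or 2.99 ± 0.225 (SD, n = 4), inside the range of the SOX9 libraries. For the median promoter in place of the mean, the log2 ratio in the SOX9 libraries was 2.41.

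The same sequence rule away from start sites gave lower levels on average. There were 851 windows of 2 kb with a CpG-rich centre at least 5 kb from every annotated transcript start, with means of 5.87, 6.74, 6.14 and 5.69 and medians of 2.81, 2.57, 2.57 and 2.83 in the 4 SOX9 libraries. CpG-rich promoters stood at 1.24, 2.18, 1.74 and 1.53 times those means, a mean log2 ratio of 0.71 (exact sign-flip permutation p = 0.125, the smallest possible, n = 4). It was 1.52 for the median promoter and window. This direction depended on the thresholds. With a GC content of at least 0.60 and a CpG ratio of at least 0.75, 102 far windows and 4060 promoters remained, and the log2 ratio was -0.56. Of these 102 windows, the same 9 reached 50 times the mean or more in each SOX9 library, and their medians (3.12, 6.23, 4.97 and 3.65) stayed below those of the promoters (6.32, 12.5, 8.97 and 7.64). In the controls the far windows were lower relative to promoters, with a ratio of 2.54 ± 0.234 (SD, n = 4) against 1.67 ± 0.396 (SD, n = 4) in the SOX9 libraries, a difference that was not tested.

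On the scale of the library mean, no higher level with the SOX9 antibody than in the secondary-only controls was detected for the class. Controls had a mean level of 11.1 (uninjured M), 11.5 (uninjured F), 9.94 (1 d.p.i. M) and 11.3 (1 d.p.i. F), or 10.95 ± 0.694 (SD, n = 4), against 10.3 ± 3.22 (SD, n = 4) for SOX9. All 4 controls lay within the range of the SOX9 libraries, and the log2 ratio of SOX9 over control was -0.13 (exact two-sided permutation test, 4 libraries against 4, p = 0.543). The tests of 4 libraries against 4 take no account of each control sharing its nuclei sample with a SOX9 library. Paired by nuclei sample, the exact sign-flip permutation test gave p = 0.625 (n = 4), where 0.125 is the smallest possible. The log2 ratio was 0.019 without the SOX9 library of uninjured M. With trimmed-mean scaling, in which only bins that hold a fragment count, it was 2.47 (exact permutation p = 0.0286, the smallest possible, n = 4 and 4). When the controls were rebuilt only from lone fragments absent from all SOX9 libraries, a choice made after seeing the data, their levels were 10.1, 6.90, 5.89 and 5.69 and the log2 ratio turned to 0.52 (exact permutation p = 0.114, n = 4 and 4). These controls rest on 1355, 6777, 5845 and 889 fragments. A control fragment is more likely to match, and so to be dropped, where SOX9 coverage is dense, as at these promoters. The choice can therefore lower the controls by construction, and the turn cannot be read as SOX9 above control. The part of chance matches in this turn was not tested.

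No change with injury was detected for the class as a whole. The mean level was 10.96 ± 5.24 (SD, n = 2) in uninjured cords and 9.69 ± 1.41 (SD, n = 2) at 1 d.p.i. M stood higher at 1 d.p.i. (10.7 against 7.25) and F lower (8.69 against 14.7), so the groups overlapped. The mean log2 change was -0.10 (exact two-sided permutation p = 1.0, n = 2 and 2, a design that cannot go below 0.333). It was 0.41 without the uninjured F library and -0.61 without the uninjured M library. The ratio of CpG-rich to CpG-poor promoters changed by -0.03 on the log2 scale (exact permutation p = 1.0, n = 2 and 2), again with opposite signs in M and F.

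Single promoters gave no call either. Of the 8233 members, 8070 had a mean of at least 1 over the SOX9 libraries and were tested together with all other promoters past that filter, 15538 in all. limma called 0 members higher and 0 lower after injury, taking an adjusted p under 0.05, against 0.00644% and 0.0% of all promoters tested. The only promoter called was that of Gm11361 (chr13:28256528-28258528), which is CpG-poor and is named after its value was seen. At an unadjusted p under 0.05, 36 members (0.446%) were higher and 53 (0.657%) lower, below the 0.792% and 0.914% of all promoters tested. These counts depended on the libraries: the limma fit of all 8 gave 53 higher and 177 lower. Leaving out uninjured F gave many more higher members, and leaving out uninjured M many more lower ones. The shares of all promoters are not given for these other fits. Both libraries at 1 d.p.i. lay above both uninjured ones for 295 members (3.66%, against 7.36% of all tested) and below both for 1101 (13.6%, against 14.9%). In 5655 members (70.1%) M was higher and F lower at 1 d.p.i., and in 243 (3.01%) the reverse held, against 58.2% and 7.79% of all tested. The median standard error of a member's log2 change was 0.66.

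The members with the smallest unadjusted p among those that moved the same way in M and F did not pass the threshold, each with an adjusted p of 1.0 from limma. Nedd1, which acts in spindle assembly at the centrosome, stood at 0.0 and 4.97 in uninjured M and F, and at 7.68 and 5.35 in M and F after injury (log2 change 2.06 ± 0.67 SE). Lypd6b had 0.108 and 5.63, then 5.84 and 7.75 (1.90 ± 0.66 SE). Ezr, which encodes the membrane-to-actin linker ezrin, had 0.0 and 1.41, then 2.35 and 4.59 (1.96 ± 0.81 SE). In all 3 the uninjured M library was the lowest. In the other direction, Rapgef4, an exchange factor that responds to cyclic AMP, had 7.51 and 5.80, then 1.14 and 1.15 (-2.11 ± 0.67 SE). Tex30 had 3.46 and 8.02, then 0.238 and 2.09 (-2.07 ± 0.71 SE), and Tnfrsf11a, the receptor RANK, had 4.27 and 4.25, then 0.0 and 1.86 (-2.13 ± 0.76 SE). These changes kept their sign but moved with 1 library left out, from 0.34 to 3.79 for Nedd1, 0.24 to 3.57 for Lypd6b, 0.99 to 2.93 for Ezr, -2.29 to -1.94 for Rapgef4, -2.98 to -1.16 for Tex30 and -3.25 to -1.02 for Tnfrsf11a. The pseudocount moved them as well. With 0.1 and then 2 in place of 0.5, the log2 change was 3.19 and 1.18 for Nedd1, 2.64 and 1.12 for Lypd6b, 3.12 and 1.03 for Ezr, -2.43 and -1.46 for Rapgef4, -2.64 and -1.29 for Tex30, and -3.30 and -1.17 for Tnfrsf11a. None passed with either, and the lowest adjusted p was 0.624 for Nedd1 with 0.1 (limma).

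The 8 members with the highest mean over the SOX9 libraries are given, a rank in which uninjured F, the library with the highest levels, weighs most. The highest member of a single library was Rnf5 in uninjured M (69.1), Sp1 in uninjured F (161.1), Rap2a in 1 d.p.i. M (109.4) and Agpat1 in 1 d.p.i. F (78.2). In the order uninjured M, uninjured F, 1 d.p.i. M and 1 d.p.i. F, Sp1, itself a factor that binds GC boxes, had 56.0, 161.1, 92.1 and 71.8 times the library mean at chr15:102405143-102407143. Agpat1 and Rnf5 start close together on opposite strands (chr17:34603262-34605262 and chr17:34602690-34604690), so their windows share fragments, with means over the SOX9 libraries of 94.3 and 92.8. The small GTPase gene Rap2a (chr14:120477444-120479444) had a mean of 90.4, and Zbtb20 (chr16:42874881-42876881), a zinc finger repressor that acts in glial and neuronal development, 89.8. Rab40c followed at 87.3, the kinase gene Gsk3b at 84.2 and Izumo4 at 81.8. At each of these 8 promoters uninjured F was the highest SOX9 library and uninjured M the lowest, most narrowly at Gsk3b with 52.1 in uninjured M and 53.3 in 1 d.p.i. F. The sparse secondary-only controls were high at these promoters too. In the same order of samples, the controls had 102.2, 110.6, 159.5 and 34.7 at Sp1 and 81.6, 250.3, 25.2 and 144.6 at Gsk3b. Agpat1, Rnf5 and Rab40c were at 0.0 in the 1 d.p.i. F control.

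Members at the edge of the rule are given beside their neighbours outside it, with no test. Just inside the GC threshold, at 0.5504, Abraxas1, Anapc1 and Arhgef39 had means over the SOX9 libraries of 3.62, 3.10 and 3.63. Just outside, at 0.5495, BC024063, Brinp2 and Bud23 had 5.90, 6.39 and 4.40. Members can tie at the edge: Ndufb8, also inside at 0.5504, had 5.55, so the order across the threshold depends on which tied members are named. At the CpG ratio threshold, Mfsd4b3, Ankrd13d and S1pr1 inside had 4.97, 16.3 and 3.02, and Etnk2 and Rnaseh2b outside had 5.99 and 2.46. Of the CpG-poor promoters, 2255 met the GC threshold alone and 1586 the CpG ratio alone.

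Housekeeping families had levels near those of the class, with the medians of ribosomal protein and complex I genes above those of the class in each SOX9 library. Of 72 genes of cytosolic ribosomal proteins, 52 had a CpG-rich promoter, with medians of 7.18, 14.3, 10.4 and 8.54 in uninjured M, uninjured F, 1 d.p.i. M and 1 d.p.i. F, against 5.73, 11.1, 8.02 and 6.93 for all members. They ran from Rpl37a at 3.58 to Rps19 at 34.6. Subunits of respiratory complex I had 19 CpG-rich promoters of 34, with medians of 6.21, 13.9, 8.83 and 8.04 and Ndufa11 highest at 32.1. Proteasome subunits had 19 of 38, with medians of 4.26, 11.9, 8.45 and 7.15, from Psmb4 at 3.42 to Psmb3 at 21.4. None of the members of these 3 lists passed the injury test, adjusted or at an unadjusted p under 0.05. Of all promoters tested, only 0.792% were higher and 0.914% lower at that unadjusted p, so this does not set the 3 lists apart.

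Developmental regulators had low levels for their sequence. Of 66 genes of homeobox, T-box, paired-box and GATA families, 39 were CpG-rich, and their medians were 1.44, 1.48, 0.957 and 1.46, close to the library mean. The lowest were Dlx6 at 0.394 and Nkx2-4 at 0.414, and the highest Nkx6-2 at 7.59, a regulator of ventral cord progenitors and oligodendrocytes, Irx3 at 5.75 and Lhx5 at 5.60. Unlike the class, their medians did not rank uninjured F clearly above the rest. The 20 CpG-rich promoters of 39 Hox genes had medians of 3.34, 6.85, 6.68 and 3.65. Hox genes pattern the body axis. Hoxa7 (11.1) and Hoxb9 (8.49) were among the highest, and Hoxc11 (0.379), Hoxc12 (0.425) and Hoxd13 (0.530), which are used at the caudal end of the body, were lowest. A mean of at least 1 was reached by 28 of the 39 developmental regulators and 15 of the 20 Hox members, and 0 of these passed the injury test. Of all promoters tested, 0.00644% passed as higher and 0.0% as lower.

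Zinc finger genes named Zfp had CpG-rich promoters in 131 of 383 cases, with medians of 5.92, 10.3, 7.67 and 6.76, and ranged from Zfp618 at 0.634 to Zfp78 at 57.8. Of the 130 tested, 0 passed limma at an adjusted p and 1 was lower at an unadjusted p under 0.05, against 0.914% of all promoters tested. This was Zfp872, named after its value was seen, with 1.42 and 6.11 in uninjured M and F, then 0.608 and 0.549 (log2 change -1.72 ± 0.81 SE). The SOX and NFI genes had 15 CpG-rich promoters of 22, with medians of 4.11, 3.47, 4.55 and 4.30. Sox8 (18.4), Sox12 (14.9) and Sox2 (11.7) led them, and Sox17 (0.334) and Sox14 (0.670), which act in endothelium and in subsets of neurons, were lowest. In limma 0 of the 13 tested passed at an adjusted p, and 1 was higher at an unadjusted p under 0.05, against 0.792% of all promoters tested. This was Sox5, named after its value was seen, with 0.563 and 3.39, then 3.21 and 6.83 (log2 change 1.36 ± 0.68 SE).

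The promoter of Sox9 itself (chr11:112781224-112783224) stood below the class in uninjured cords, where M had 4.11 and F 3.47. At 1 d.p.i. M had 8.76 and F 4.30. Both values at 1 d.p.i. lay above both uninjured ones, with a log2 change of 0.64 ± 0.64 SE that did not pass (adjusted p of 1.0, limma). All 4 controls were at 0 there, as they were at most single promoters.

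Immediate early and injury genes had CpG-rich promoters in 22 of 28 cases, with medians of 7.40, 12.1, 12.4 and 8.73. None of these 22 passed the injury test, adjusted or at an unadjusted p under 0.05, which 0.792% of all promoters tested reached as higher and 0.914% as lower. Fos, the AP-1 subunit induced within minutes of a stimulus, had 8.46 in M and 11.996 in F before injury, then 20.3 and 18.99, without overlap, with a log2 change of 0.93 ± 0.68 SE. Jun (25.02 and 39.2, then 35.2 and 39.3), Junb (14.1 and 21.4, then 14.4 and 22.0) and Klf6 (10.7 and 15.2, then 26.6 and 15.7) were high in both conditions. Jund had the highest mean of the list, 40.4, and Egr2 the lowest, 1.64. Stat3 (14.0 and 40.6, then 36.6 and 18.5) followed the opposite directions of M and F, and Myc (3.47 and 7.57, then 9.55 and 8.58) was higher in both libraries at 1 d.p.i. Atf3 and Socs3 lie outside the class. Atf3, a stress-induced factor, had 1.998 and 1.21, then 0.406 and 1.37 (log2 change -0.66 ± 0.87 SE). Socs3, a feedback inhibitor of cytokine signals, had 5.31 and 6.95, then 14.8 and 17.3 (1.33 ± 0.66 SE). Neither passed (adjusted p of 1.0 each, limma), and the unadjusted p was 0.446 for Atf3 and 0.0455 for Socs3.

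The cell type marker lists hold at most 10 genes each. Whether their shares of CpG-rich promoters differ from the 39.57% of all coding promoters was not tested. The ependymal and progenitor lists lay closest to that share, and the lists without a CpG-rich promoter furthest below it. Markers with a CpG-rich promoter are counted here by list. They numbered 3 of 10 for astrocytes (Slc1a2 at 13.7, Sox9 at 5.16 and Fgfr3 at 3.74), 1 of 8 for reactive astrocytes (Slc39a14, a zinc and iron carrier, at 9.35), 2 of 5 for ependymal cells (Foxj1 at 13.4 and Rfx4 at 2.67), and 2 each of 8 oligodendrocyte and 5 progenitor markers, the same Olig1 (20.0) and Olig2 (12.9). Neurons had 3 of 8 (Map2 at 11.5, Slc32a1 at 6.75 and Gad2 at 4.08), endothelium 2 of 6 (Flt1 at 2.07 and Kdr at 1.24), microglia and macrophages 0 of 8, and mural cells and fibroblasts 0 of 5. None of them passed the injury test, which 0.00644% of all promoters tested passed as higher and 0.0% as lower. The astrocyte intermediate filament genes Gfap and Vim are outside the class, as are Cd44, Sox10, Nfia, Nfib, Pax6, Gata4, Hoxa9, Gapdh and Eef1a1 by this choice of start. Gfap had 2.24 and 2.47, then 3.42 and 3.54, and Vim 2.02 and 3.09, then 7.09 and 6.58. Cd44 had 1.91 and 1.21, then 2.05 and 1.14, and Sox10 28.4 and 31.3, then 23.1 and 11.96. None of these 4 passed (adjusted p of 1.0 each, limma), and the unadjusted p was under 0.05 for Vim (0.0456) alone.

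Genes of general use differed in the order of their libraries. Actb had 18.8 in M and 42.6 in F before injury, then 28.0 and 25.8, and Polr2a, the largest subunit of RNA polymerase II, 26.2 and 42.5, then 34.6 and 21.7. Rplp0 varied less, with 9.50 and 11.9, then 10.6 and 13.4. Ndufa4 had 5.48 and 12.3, then 13.2 and 10.5, and Psmb5 4.58 and 9.19, then 4.74 and 4.21.

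Within the class, coverage rose with both parts of the sequence rule, which is a description since the rule used them. From the lowest to the highest of 5 equal parts by GC, the mean went from 6.43 to 7.78 in uninjured M, from 12.6 to 16.4 in uninjured F, from 9.30 to 11.6 in 1 d.p.i. M and from 7.59 to 9.41 in 1 d.p.i. F. For the CpG ratio the ends were 6.51 and 7.89, 12.6 and 16.4, 9.29 and 11.8, and 7.59 and 9.53. The controls rose from the lowest to the highest part by GC as well, in all 4.

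Divergent promoters stood out more. The 1051 members with an opposite-strand coding start within 1 kb (12.77%, against 3.17% of CpG-poor promoters) had 1.35, 1.43, 1.38 and 1.38 times the mean of the other members in the SOX9 libraries and 1.45, 1.29, 1.47 and 1.42 times in the controls. Their windows can hold both start sites. Libraries with and without the antibody overlapped in this ratio.

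Motif words were searched on both strands of the 500 bp to each side of the start. A SOX word (AACAATG or ACAAAGG) occurred in 16.2% of members and 24.1% of all coding promoters. Members with one had slightly lower coverage than those without, by ratios of 0.921, 0.924, 0.918 and 0.936 in the SOX9 libraries, and a lower median GC content (0.622 against 0.626). The controls gave 0.941, 0.923, 0.875 and 1.07. An AP-1 word (TGAGTCA or TGACTCA) was in 7.76% of members and 12.1% of all, and members with one differed little in coverage from those without. For the SOX word the conditions overlapped. For the AP-1 word both ratios at 1 d.p.i. (1.057 and 1.064) lay just above both uninjured ones (1.048 and 0.988), a difference that was not tested. The controls were spread more widely, at 0.974 and 1.038 in uninjured cords and 0.990 and 1.186 at 1 d.p.i. Such a split was not particular to AP-1 among the words searched, the rest of which are given below. In the SOX9 libraries CACGTG had 0.9985 and 0.985 in uninjured cords, then 1.012 and 1.026. TATAAA had 0.791 and 0.765, then 0.870 and 0.949. AAGATGGCG split the other way, with 1.26 and 1.24, then 1.21 and 1.19.

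Words of factors that bind CpG-rich promoters in many tissues went with higher coverage. GGGCGGG, of the SP and KLF factors, was in 80.6% of members and 47.5% of all coding promoters, with ratios of 1.22, 1.29, 1.27 and 1.25. Members with it also had more GC (0.632 against 0.599). CCAAT, of NF-Y, was in 62.3% and 70.3%, with ratios of 1.21, 1.25, 1.24 and 1.21 although members with it had less GC (0.617 against 0.639). AAGATGGCG, of YY1, was in 6.35% and 3.60%, with 1.26, 1.24, 1.21 and 1.19. GCATGCGC, of NRF1, was in 8.60% and 5.31%, with 1.13, 1.14, 1.14 and 1.12, and CCGGAAG, of ETS factors, in 30.4% and 19.5%, with 1.09, 1.12, 1.11 and 1.11. The controls had ratios above 1 for these words too, at 1.24, 1.29, 1.15 and 1.297 for SP and KLF, 1.37, 1.33, 1.41 and 1.32 for NF-Y, and 1.26, 1.12, 1.32 and 1.42 for YY1. For NRF1 they ran from 1.07 to 1.26 and for ETS from 1.04 to 1.17. TGACGTCA, the cyclic AMP response element, was in 5.07% and 3.33%, with 1.092, 1.038, 1.087 and 1.097, while the controls fell on both sides of 1 (0.884, 1.122, 1.09 and 0.960). CACGTG, the E-box, was in 22.8% and 17.3%, with ratios of 0.985 to 1.03 and 0.995 to 1.093 in the controls. TATAAA 40 to 20 bp upstream was found in 60 members (0.729%, against 2.33% of all), with ratios of 0.791, 0.765, 0.870 and 0.949, and 0.965, 0.769, 1.057 and 0.415 in the controls. Words can overlap one another, such as SP words in the same GC-rich stretch, and a match is not a bound site.

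Fragments were slightly shorter in the class. Their mean length was 242.4 bp against 256.9 bp elsewhere in uninjured M, 221.7 against 223.0 in uninjured F, 244.7 against 263.4 in 1 d.p.i. M and 251.9 against 265.0 in 1 d.p.i. F. Uninjured F, the SOX9 library with the highest promoter level and the most fragments, had the shortest fragments of the SOX9 libraries in and outside the class, and the part of fragment length in its level was not tested. In the controls the means were 204.3 against 214.5, 204.9 against 205.4, 211.1 against 214.8 and 223.9 against 240.7 bp in the same order. With the SOX9 libraries thinned to 1901433 fragments each, the log2 change of the class with injury was -0.097 against -0.098 without thinning, a ratio to the library mean that random thinning leaves alike in expectation.

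The 200 bases before the start are printed with each CpG in capitals, on GRCm38 (the build of mm10), written 5′ to 3′ on the strand of the gene. These bases are only a part of the 500 bp to each side that the rule used. The stretches are those of the member with the highest mean over the SOX9 libraries, of Fos, of a housekeeping member, of a CpG-rich member with low coverage and of Gfap as a promoter outside the class.
Sp1, chr15:102405943-102406142 (+ strand): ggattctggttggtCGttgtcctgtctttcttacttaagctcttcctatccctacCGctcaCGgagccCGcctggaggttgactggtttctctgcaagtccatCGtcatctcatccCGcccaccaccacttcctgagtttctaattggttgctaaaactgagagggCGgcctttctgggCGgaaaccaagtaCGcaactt
Fos, chr12:85473690-85473889 (+ strand): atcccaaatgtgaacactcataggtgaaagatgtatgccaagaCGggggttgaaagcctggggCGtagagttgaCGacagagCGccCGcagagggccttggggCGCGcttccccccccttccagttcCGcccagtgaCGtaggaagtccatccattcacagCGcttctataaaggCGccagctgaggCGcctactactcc
Rplp0, chr5:115559267-115559466 (+ strand): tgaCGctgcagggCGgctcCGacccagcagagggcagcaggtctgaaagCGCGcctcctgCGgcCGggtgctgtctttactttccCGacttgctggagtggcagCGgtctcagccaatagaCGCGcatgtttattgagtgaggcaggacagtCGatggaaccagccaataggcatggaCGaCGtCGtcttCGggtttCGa
Hoxd13, chr2:74668110-74668309 (+ strand): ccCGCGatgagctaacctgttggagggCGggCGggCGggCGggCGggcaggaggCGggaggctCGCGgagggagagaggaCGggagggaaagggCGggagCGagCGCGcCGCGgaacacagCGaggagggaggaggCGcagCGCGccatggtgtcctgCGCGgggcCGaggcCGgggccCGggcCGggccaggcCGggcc
Gfap, chr11:102900913-102901112 (- strand): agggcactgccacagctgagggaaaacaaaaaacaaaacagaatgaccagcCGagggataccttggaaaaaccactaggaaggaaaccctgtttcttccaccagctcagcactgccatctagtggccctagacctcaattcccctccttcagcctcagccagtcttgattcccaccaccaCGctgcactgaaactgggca
These stretches hold 9, 12, 17, 28 and 2 CpGs. Hoxd13 has the most, with a GC content of 79.5% over these bases and a mean coverage of 0.530, while Sp1 has 9 and a mean of 95.3. Both were picked for their coverage, so these 5 promoters cannot show how coverage goes with the number of CpGs. The stretches of Sp1, inside the class, and Gfap, outside it, both have a GC content of 52.5%.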

How the data were processed

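Coverage was analysed in 8 CUT&Tag libraries, 4 with anti-SOX9 and 4 secondary-only controls. Per the submitters' processing notes and the methods, the authors mapped reads to mm10 with Bowtie2 2.5.4, removed duplicates with Picard 3.4.0 and called peaks with SEACR 1.3. The deposited signal is whole-number coverage by the authors, without scaling for depth. Peaks were not used here.

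Fragments were rebuilt by joining rises and falls of the coverage in order, and a rise that coincides with a fall is lost. Coverage over 1 kb to each side of a start was divided by the library's mean over chromosomes 1 to 19. Genes are from GENCODE M21 and the sequence from GRCm38.p6 of RefSeq. Promoters with a mean of at least 1 over the SOX9 libraries were tested with limma 3.58.1 (R 4.3.3, mean-variance trend, Benjamini-Hochberg) on log2(coverage over the mean + 0.5), a scale that understates changes of low promoters, in the 4 SOX9 libraries. The fit was tested on simulated data, where it missed most of the smaller changes, so a promoter without a call is not shown to be unchanged. Class values were compared by exact two-sided permutation or sign-flip tests over libraries (Python 3.11.15, numpy 2.4.6, scipy 1.17.1, pandas 2.3.3).

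Genes were named by rule: those past the threshold, or the 3 with the smallest p in each direction if fewer than 3 passed, in both cases among those changing the same way in M and F; the 8 highest; the 3 nearest each side of a sequence threshold; a fixed list; and the ends of each gene list. Some items that the rule names are not reported here. The lists were cytosolic ribosomal proteins, complex I, proteasome, Hox, developmental factors, Zfp, SOX and NFI, immediate early and injury genes, and cell type markers. Members and lists were chosen with earlier results of these data known. Alternatives covered the samples fitted, blocks, scaling, pseudocounts, filter, trend, window, depth, summary, thresholds, shared windows and each library left out.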

Additional observations from a re-analysis of the deposited data

Results flagged for a closer look

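The change of CpG-rich promoters at 1 d.p.i. had opposite signs in the 2 sexes, in 3 related values. On the log2 scale, the mean level changed by 0.56 in M and -0.75 in F, the ratio to CpG-poor promoters by 0.28 in M and -0.34 in F, and the ratio to CpG-rich windows far from start sites by 0.49 in M and -0.51 in F. CpG-poor promoters had the same signs, with mean levels of 2.92 before and 3.55 after injury in M and 4.20 and 3.15 in F, and median log2 changes of 0.29 and -0.39 over those tested. Each sex has 1 library per condition, so whether the sexes differ was not tested. The 3 values share the same promoter levels and are not independent of each other. Uninjured F had the most fragments (7248962) and uninjured M the fewest (1901433) of the SOX9 libraries, and the values of M and F apart were not recomputed at equal numbers. Over both sexes, thinning to 1901433 fragments each gave -0.097 for the mean level against -0.098, and -0.033 for the ratio to CpG-poor promoters against -0.032. Random thinning leaves such ratios alike in expectation.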

How the results depend on the processing

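For injury, limma called 0 CpG-rich promoters higher and 0 lower in all 13 alternatives, among them the fit of all 8 libraries, the replicate block for sex, which changed no call, and each library left out (0 to 0 in either direction). The labels do not say that M and F pair animals, and deviations of the M libraries from their group means correlated at -0.0933 across 15538 promoters. Unadjusted counts did move, from 36 higher and 53 lower in the main fit to 53 higher and 177 lower in the fit of all 8 libraries. Many more members were higher without uninjured F, and many more lower without uninjured M. In each of these 2 fits a lone library was assumed to vary like the others. The shares of all promoters tested are not given for these alternatives, so the moves are not shown to be particular to the class. The class-wide log2 change at 1 d.p.i. ran from -0.61 to 0.41 with a library left out, turning sign without uninjured F (0.41) or 1 d.p.i. F (0.05), and the change of the CpG-rich over CpG-poor ratio from -0.28 to 0.21, turning without uninjured F (0.21) or 1 d.p.i. F (0.03). SOX9 over control ran from -0.32 to 0.02, turning without uninjured M (0.019). It was 2.47 with trimmed-mean scaling (exact permutation p = 0.0286 without pairing by nuclei sample, the smallest possible). By construction only bins holding a fragment count in that scaling, which divides the sparse controls by 3.63 to 12.4 and the SOX9 libraries by 0.860 to 1.07. SOX9 over control was 0.52 with control fragments absent from the SOX9 libraries, an alternative chosen after seeing the data that can lower the controls by construction where SOX9 coverage is dense. It had no value for the median promoter, at 0 in the controls. CpG-rich promoters over far windows turned to -0.56 with the stricter thresholds was 1.52 for the median promoter, and ran from 0.57 to 0.84 with a library left out. CpG-rich over CpG-poor kept its direction in all 8 alternatives, from 1.17 with the stricter thresholds to 2.41 for the median promoter, and from 1.46 to 1.62 with a library left out. Where no cause is given, the cause was not tested. With 2 libraries per condition the exact tests of injury cannot pass 0.05, and neither can the sign-flip tests over 4 libraries. The p-values of the exact tests say nothing of stability.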

Other observations

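CpG-rich promoters of chromosome X were not part of the comparisons. The 172 such promoters had means of 3.59 (uninjured M), 7.64 (uninjured F), 6.01 (1 d.p.i. M) and 5.19 (1 d.p.i. F) over the mean of chromosomes 1 to 19, below the autosomal members in each SOX9 library, and 6.78, 5.80, 4.72 and 4.63 in the controls.

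The share of coding promoters that are CpG-rich differed between chromosomes, from 26.1% of 2023 on chromosome 7 to 50.9% of 643 on chromosome 12. The 528 members of chromosome 7 had a mean of 18.2 in uninjured F, and those of chromosome 13 a mean of 11.96 in the same library.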
